A study of Mus musculus with 3 samples.

Results

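The voltage-gated sodium channel subunits and their fibroblast growth factor (FGF) partners were followed in ribosome-bound RNA of the deep cerebellar nuclei, whose neurons carry the output of the cerebellum. The set was picked by name and holds 9 of the 32531 genes in the count tables. It comprises 4 pore-forming alpha subunit genes (Scn1a, Scn2a1, Scn3a and Scn8a), 3 beta subunit genes (Scn2b, Scn3b and Scn4b) and 2 intracellular FGF genes (Fgf12 and Fgf14). The 3 libraries, replicates 1 to 3, form a single group of adult C57BL/6J mice of the Htr6-TRAP line NIDA113. These mice carry the ribosomal protein gene Rpl10a fused to EGFP, and the line is named for the serotonin receptor gene Htr6, which itself had 0, 7 and 0 counts in replicates 1, 2 and 3. Tagged polysomes were pulled down with anti-EGFP antibodies, a procedure called translating ribosome affinity purification (TRAP). All 3 libraries are pulldowns, so a value is an abundance in purified RNA and not an enrichment over tissue. Nothing in the labels says whether the replicates came from separate or pooled animals, so their spread may be partly technical.

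Voltage-gated sodium channels open during the rising phase of the action potential. The alpha subunit forms the pore, and beta subunits are single-pass membrane proteins that modify its gating and its placement in the membrane. FGF homologous factors are not secreted: they bind the cytoplasmic tail of alpha subunits and change inactivation. In the cerebellum these proteins are best known from neurons that fire spontaneously at high rates, where a resurgent sodium current flows on repolarisation.

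Libraries held 7622010 to 8842058 reads counted to genes. Levels are in CPM, the counts of a gene per 1000000 gene counts, scaled to library sizes adjusted by the TMM method. Where genes are set against each other the level is divided by exon length, as CPM per kilobase of exon (RPKM), and values are mean ± SD over n = 3 libraries. A count of 0 allows up to 0.397, 0.34 and 0.385 CPM in replicates 1, 2 and 3, taking 3 counts as the limit and covering counting error only. Markers of glutamatergic neurons of the deep nuclei were present, with 6 of 6 genes counted in every library and a summed level of 118.5 to 172 RPKM. Their mean levels were uneven, highest for Spp1 (77.9 RPKM) and Slc17a6 (55.9 RPKM) and lowest for Tbr1 (1.90 RPKM) and Lhx9 (0.654 RPKM). Markers of granule cells (7 of 7 genes, 693 to 834 RPKM) and Purkinje cells (7 of 7 genes, 668 to 918 RPKM) were also counted in every library. So were markers of oligodendrocytes (6 of 6 genes, 285 to 392 RPKM) and astrocytes (5 of 5 genes, 351 to 379 RPKM). These sums were uneven too. In the Purkinje list, Car8 (299 RPKM), Itpr1 (200 RPKM) and Rgs8 (180 RPKM) stood far above Pcp2 (15.1 RPKM) and Skor2 (2.34 RPKM). In the astrocyte list, Aldoc (213.5 RPKM) and Slc1a2 (102 RPKM) stood far above Gfap (7.35 RPKM) and Aldh1l1 (1.15 RPKM). Levels below therefore cannot be assigned to a single type of neuron, nor to neurons alone. In such bulk RNA, fewer cells of a type and less RNA per cell cannot be told apart.

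All 9 genes had counts in every library, and 7 of them lay above the median gene. The median of the 9 mean levels was 23.8 RPKM, against 3.94 RPKM over the 12540 genes with a known exon length and at least 10 counts summed over the libraries. Scn8a was the highest at 126 ± 42.9 RPKM and ranked 133 among those genes, with 98.9% of them below it. Scn1a followed at 52.9 ± 9.53 RPKM, then Fgf12 (37.5 ± 12.5 RPKM), Scn2b (33.1 ± 10.4 RPKM), Scn2a1 (23.8 ± 9.43 RPKM), Fgf14 (20.8 ± 6.14 RPKM) and Scn4b (18.4 ± 5.22 RPKM). The remaining genes, Scn3b at 1.20 ± 0.57 RPKM and Scn3a at 0.90 ± 0.87 RPKM, had 24.9% and 20.2% of genes below them. Neighbours in this order were not all separable. The differences of Fgf12 minus Scn2b (0.16 ± 0.45 on the log2(RPKM + 1) scale), Scn2b minus Scn2a1 (0.50 ± 0.63), Scn2a1 minus Fgf14 (0.14 ± 0.82) and Scn3b minus Scn3a (0.30 ± 0.80) were smaller than their SD. Fgf14 minus Scn4b was 0.16 ± 0.03 in the same units, and this order depended on exon length, since in CPM Scn4b stood above Fgf14 at a difference of -0.078 on the log2(CPM + 1) scale.

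**Figure D1:**
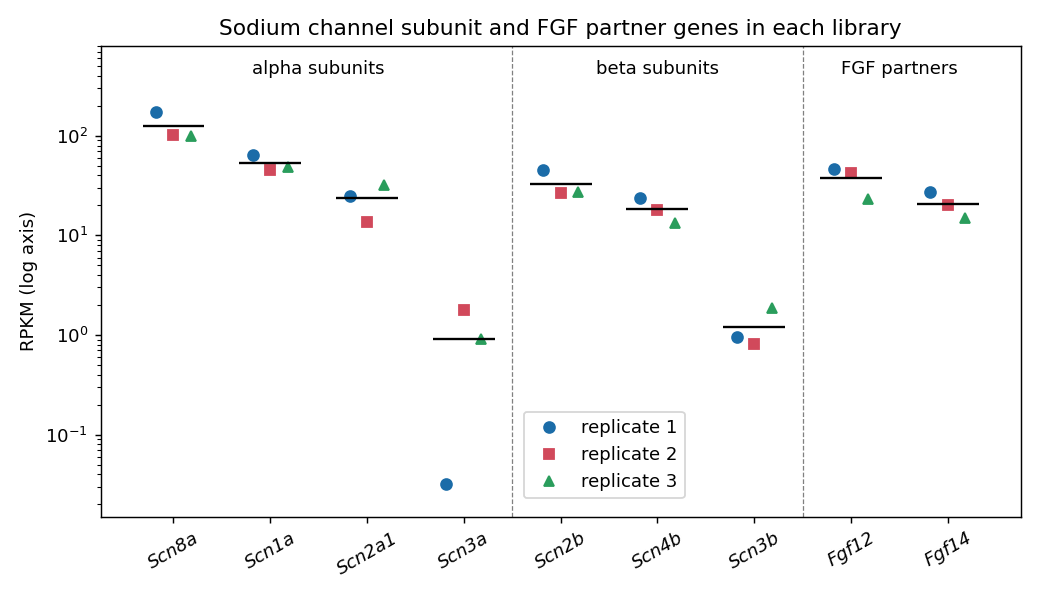
RPKM (log axis) of the 9 genes in each library, with a bar at the mean over 3 libraries. Scn8a lies above the other alpha subunit genes in each library, and Scn3a in replicate 1 lies far below its level in replicates 2 and 3.

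Scn8a supplied most of the alpha subunit reads. The gene encodes the alpha subunit that gathers at the axon initial segment and nodes of Ranvier and carries much of the resurgent current in mouse Purkinje cells. It lies on the plus strand of chromosome 15, positions 100869858 to 101045938 in mm10 (ENSMUSG00000023033.14, 27 exons in its longest coding transcript). It had 20911, 14206 and 12318 counts in replicates 1, 2 and 3, or 176, 102 and 100.3 RPKM. Replicate 1 stood above the other two, which differed little from each other. As a share of the summed RPKM of the 4 alpha genes, Scn8a made up 66.4%, 62.5% and 54.9% in replicates 1, 2 and 3 (61.3 ± 5.9%, n = 3). By counts alone, without length scaling, its share was 72.9%, 69.5% and 61.9%, with exact 95% binomial intervals of 72.4 to 73.4%, 68.9 to 70.2% and 61.2 to 62.6%. The intervals do not overlap, so the share differed between libraries by more than counting error.

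Scn1a, the alpha subunit gene known for its role in fast-spiking inhibitory neurons, held the next share. It lies on the minus strand of chromosome 2, positions 66270778 to 66440840 (ENSMUSG00000064329.13). Its counts were 5363, 4494 and 4270 in replicates 1, 2 and 3, or 63.7, 45.8 and 49.2 RPKM. Its share of the alpha RPKM was 24.1%, 28.0% and 26.9% (26.3 ± 2.0%, n = 3). The highest library exceeded the lowest 1.39-fold in CPM, the narrowest range of the 9 genes.

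Scn2a1, also called Scn2a, is the alpha subunit gene known from unmyelinated axons such as those of granule cells and from the immature initial segment. The gene occupies positions 65620771 to 65767447 on the plus strand of chromosome 2 (ENSMUSG00000075318.12). It had 2411, 1541 and 3221 counts, or 25.1, 13.7 and 32.5 RPKM in replicates 1, 2 and 3. Here replicate 3 was the highest, unlike Scn8a and Scn1a. Its share was 9.48%, 8.40% and 17.8% in replicates 1, 2 and 3. Shares within a class have a fixed sum, so a higher Scn2a1 share by itself lowers the Scn8a share. In RPKM, Scn8a differed little between replicates 2 and 3 (102 and 100.3) and was higher in replicate 1 (176). Without replicate 3 the mean Scn2a1 share was 8.94%, and with all libraries it was 11.9 ± 5.1%.

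Scn3a, an alpha subunit gene used mostly by the embryonic brain, was near the detection limit in replicate 1. It had 3 counts there, with an exact 95% Poisson interval of 0.619 to 8.77 counts, against 194 counts in replicate 2 and 88 in replicate 3. Its CPM in replicate 2 over that in replicate 1 was 55.4, with a counting interval of 18.7 to 271. Between replicates 2 and 3 the ratio was 1.95 (1.51 to 2.54). In no library did Scn3a exceed 1.08% of the alpha RPKM, and its mean level of 0.90 RPKM became 0.469 RPKM without replicate 2. The gene lies on chromosome 2, minus strand, positions 65457118 to 65567627 (ENSMUSG00000057182.14), beside Scn2a1.

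A stretch of Scn8a, the leading alpha gene, is printed because it codes for the inactivation gate in a cytoplasmic linker of the channel. Capitals mark the codons of the isoleucine, phenylalanine and methionine that plug the pore during fast inactivation, at residues 1487 to 1489 of 1988. The 60 bases of coding sequence, 5′ to 3′, are from the GENCODE M21 transcripts on mm10.
Scn8a: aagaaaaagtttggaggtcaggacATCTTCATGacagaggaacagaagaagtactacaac
The stretch runs from 101032314 to 101033528 on the plus strand of chromosome 15 and joins the end of exon 24 to the start of exon 25, with the intron between.

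The alpha genes are close paralogs, which bears on how well reads tell them apart. Over the whole coding sequence, Scn8a was 74.7% identical to Scn1a, 74.7% to Scn2a1 and 75.1% to Scn3a, and the chromosome 2 genes were 81.7 to 83.9% identical to each other. Of all 50-base windows of the longest coding transcript, 0.0527% in Scn8a occurred in a transcript of another gene. The figures were 5.48% for Scn1a, 7.87% for Scn2a1 and 8.53% for Scn3a. Reads from such windows align to several places and were not counted, so a portion of the reads of the chromosome 2 genes can be missing. The sources used here do not give the read length, so the window length is a choice.

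**Figure D2:**
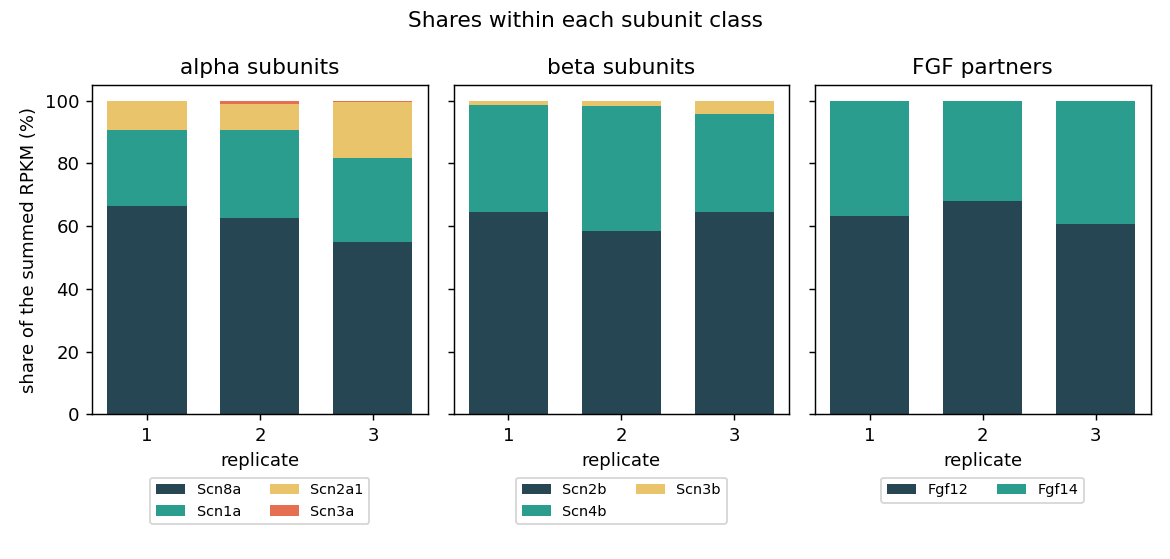
Share of the summed RPKM (percent) that each gene takes within the alpha subunit, beta subunit and FGF partner genes, with 1 bar for each of 3 libraries. Scn8a, Scn2b and Fgf12 take the largest part of their class in each library, and the Scn2a1 share is 17.8% in replicate 3.

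Of the beta subunit genes, Scn2b and Scn4b were well represented and Scn3b was low. The proteins of Scn2b and Scn4b are linked to the alpha subunit by a disulphide bond, while that of Scn3b binds without one. Scn2b (chromosome 9, plus strand, positions 45117782 to 45130070, ENSMUSG00000070304.12) had 1585, 1094 and 999 counts, or 45.1, 26.7 and 27.5 RPKM. Scn4b lies next to it, on the same strand at positions 45138395 to 45154152 (ENSMUSG00000046480.6), and had 892, 798 and 515 counts, or 23.7, 18.2 and 13.3 RPKM. Both were highest in replicate 1. Scn3b, elsewhere on chromosome 9 (plus strand, 40269217 to 40291618, ENSMUSG00000049281.16), had 39, 39 and 79 counts, or 0.946, 0.811 and 1.86 RPKM. Replicate 3 was the highest for Scn3b, and the exact 95% Poisson interval of its count, 62.6 to 98.5, did not overlap that of the other libraries, 27.7 to 53.3. Within the 3 genes, Scn2b took 64.6%, 58.4% and 64.6% of the RPKM, Scn4b took 34.0%, 39.8% and 31.1%, and Scn3b took 1.36%, 1.78% and 4.35% in replicates 1, 2 and 3. The mean Scn3b share was 2.49%, and 1.57% without replicate 3.

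Scn4b is the beta subunit whose short cytoplasmic tail has been proposed, from work in mouse neurons, as the open-channel blocker behind resurgent current. The stretch that codes for this part of the tail is shown because no other beta gene is known for it. Capitals mark the codons of leucine, isoleucine, threonine and phenylalanine, at residues 186 to 189 of 228.
Scn4b: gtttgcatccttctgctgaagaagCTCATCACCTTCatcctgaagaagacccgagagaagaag
The stretch of 63 bases lies on the plus strand of chromosome 9 between 45149334 and 45150411, with its last base in exon 5 and the rest in exon 4. Scn4b stood at 34.97 ± 4.44% of the beta RPKM, and no 50-base window of its transcript, nor of the Scn3b transcript, occurred in another gene.

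Both intracellular FGF genes were counted in every library, with Fgf12 above Fgf14. Fgf14 is the gene mutated in a human spinocerebellar ataxia and is needed in mice for normal firing of Purkinje cells. Fgf12 encodes a relative that also acts on sodium channel inactivation. Fgf12 (chromosome 16, minus strand, 28160098 to 28753068, ENSMUSG00000022523.10) had 2185, 2327 and 1126 counts, or 46.6, 42.6 and 23.3 RPKM in replicates 1, 2 and 3. Fgf14 (chromosome 14, minus strand, 123977907 to 124677127, ENSMUSG00000025551.13) had 860, 740 and 489 counts, or 27.2, 20.1 and 15.01 RPKM. For both, replicate 3 was the lowest. Fgf14 made up 36.9%, 32.1% and 39.2% of their sum (36.0 ± 3.6%, n = 3). An antisense gene overlaps 220 exon bases of Fgf14, and without strand information its reads cannot be told apart from those of Fgf14 there.

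Differences within each class had the same direction in every library. On the log2(RPKM + 1) scale, Scn8a exceeded Scn1a by 1.20 ± 0.22, Scn2a1 by 2.39 ± 0.69 and Scn3a by 6.12 ± 1.15. Scn1a exceeded Scn2a1 by 1.19 ± 0.55 and Scn3a by 4.92 ± 0.96, and Scn2a1 exceeded Scn3a by 3.74 ± 1.18. Among beta genes, Scn2b exceeded Scn4b by 0.81 ± 0.25 and Scn3b by 3.94 ± 0.62, and Scn4b exceeded Scn3b by 3.13 ± 0.71. Fgf12 exceeded Fgf14 by 0.80 ± 0.23. Each of these 10 differences was larger than its SD and was above 0 in 3 of 3 libraries. An exact permutation test that flips the sign of each library's difference, two-sided, gave p = 0.25 for each (adjusted p = 0.25 over the 10), which is the smallest that 3 libraries allow. Sizes that involve Scn3a depend on the pseudocount: Scn8a minus Scn3a was 7.60 with a pseudocount of 0.1 and 8.36 with none.

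**Figure D3:**
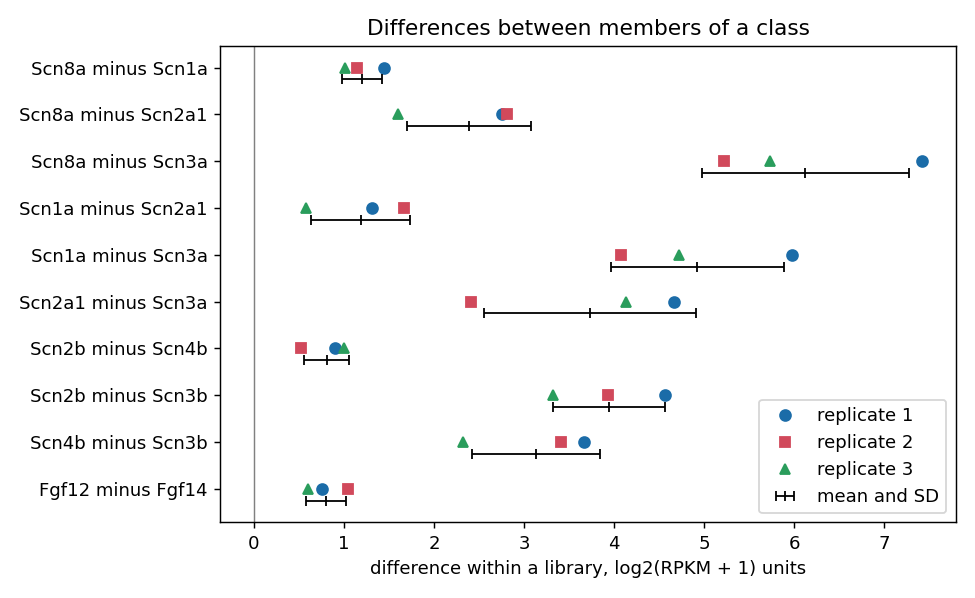
Difference between 2 genes of a class within each library, in log2(RPKM + 1) units, with the mean and SD over 3 libraries beneath the points. Every point lies to the right of 0, from 0.53 for Scn2b minus Scn4b in replicate 2 to 7.42 for Scn8a minus Scn3a in replicate 1.

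The classes were also set against each other within a library, which does not depend on library size. The summed RPKM of the 3 beta genes was 0.264, 0.279 and 0.233 of that of the 4 alpha genes in replicates 1, 2 and 3 (0.259 ± 0.023, n = 3). The 2 FGF genes together stood at 0.279, 0.383 and 0.21 of the alpha sum (0.291 ± 0.087, n = 3). The beta ratio varied little, and the FGF ratio was highest in replicate 2. Both ratios count RNA and say nothing of the number of proteins per channel.

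The 9 genes are only a portion of their families, and Fgf11 outside the set was more abundant than either FGF gene within it. Fgf11, another FGF homologous factor gene, had 2353, 3870 and 1996 counts, or 102, 144 and 84.2 RPKM. It took 54.9%, 68.1% and 66.8% of the sum of the 4 FGF homologous factor genes, while Fgf13, on chromosome X, had 313, 180 and 111 counts and took 5.53%, 2.40% and 2.81%. Fgf14 made up 12.0 ± 2.6% of that larger sum. With 4 FGF and 9 alpha genes in the sums, the FGF to alpha ratio was 0.694, 1.29 and 0.682 in replicates 1, 2 and 3 (0.89 ± 0.349, n = 3).

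Further alpha genes added little. Scn9a, known from pain-sensing neurons, had 388, 45 and 170 counts, and it made up 1.498%, 0.244% and 0.925% of the RPKM of 9 alpha genes in replicates 1, 2 and 3. An antisense gene that shares 180 exon bases with Scn9a had 50, 124 and 146 counts, and in replicate 2 that was more than Scn9a itself. Scn7a, which encodes a sodium-sensing relative, had 8, 0 and 11 counts. Scn4a of skeletal muscle and the sensory neuron genes Scn10a and Scn11a had 0 counts in all 3 libraries. Scn8a had a mean share of 60.7% among these 9 alpha genes.

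Most genes listed as anchors or regulators of these channels lay above the median gene of 3.94 RPKM. The exceptions were Sptbn4, a spectrin gene (2.28 ± 0.26 RPKM), and Kcnq3. Of 9 genes of the axon initial segment and node of Ranvier, all 9 had counts in every library, with a median of 29.0 RPKM and a summed level of 374, 347 and 374 RPKM in replicates 1, 2 and 3. The highest were Sptan1, an alpha spectrin gene (114 ± 16.5 RPKM), Ank3, the ankyrin G gene that holds sodium channels at the initial segment (69.2 ± 9.49 RPKM), and Nfasc, the neurofascin gene (64.7 ± 14.5 RPKM). Kcnq3, a potassium channel subunit gene, was the lowest at 0.52 ± 0.47 RPKM, with 28, 137 and 28 counts. All 5 genes listed as channel regulators had counts in every library, with a median of 21.95 RPKM. Ptprz1, a receptor phosphatase gene, had 68.3 ± 20.5 RPKM. Nedd4l, a ubiquitin ligase gene that acts on sodium channels, had 55.0 ± 13.4 RPKM, and the kinase gene Fyn had 21.95 ± 12.2 RPKM. Bace1, whose protease cuts beta subunits, was the lowest regulator at 5.64 ± 2.37 RPKM.

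**Figure D4:**
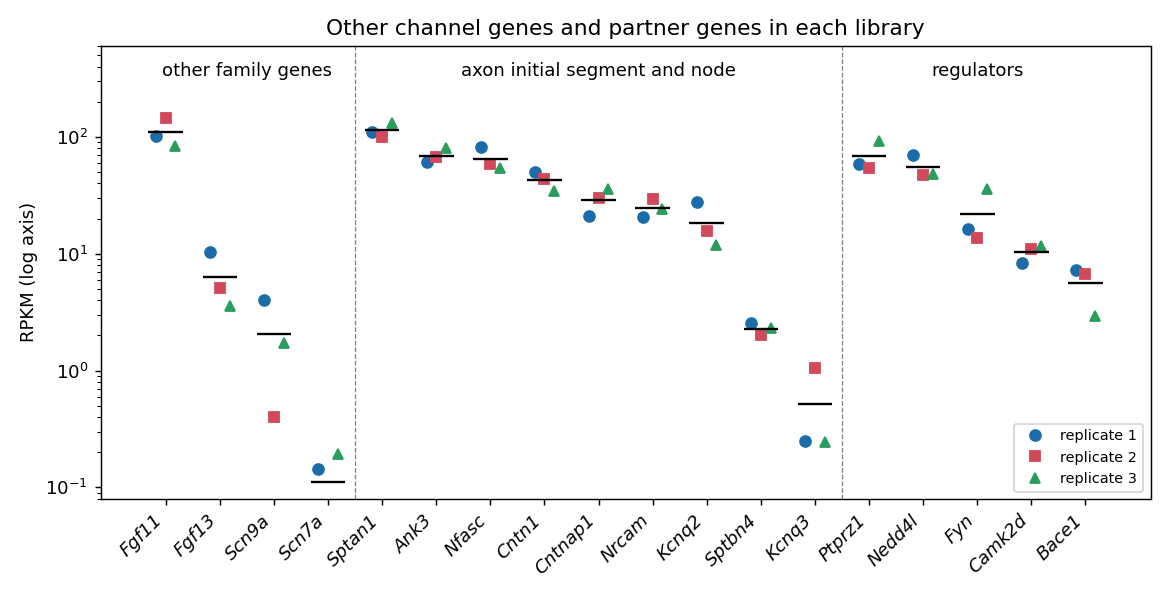
RPKM (log axis) in each library of 4 other family genes, 9 genes of the axon initial segment and node, and 5 regulators, with a bar at the mean over 3 libraries. The count of 0 of Scn7a in replicate 2 is not drawn, and Fgf11 at 84.2 to 144 RPKM is the highest of these 4.

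Every one of the 9 genes varied between the libraries beyond counting error, as did nearly all genes. The Poisson chi-square test gave an adjusted p under 0.05 for 9 of 9, beside 96.5% of the 11168 genes tested. Against the trend for genes of like level, fitted by edgeR's quasi-likelihood method, none of the 9 passed an adjusted p of 0.05. That test called 0.0% of all genes from 3 libraries, so the lack of a call does not show that the 9 vary like other genes. An unadjusted p under 0.05 was reached by 477 of the 11168 genes, none of them among the 9. The quasi-likelihood dispersion of Scn8a, which is not its negative binomial dispersion, was 4.34 times its trend (unadjusted p = 0.051, adjusted p = 0.956 in edgeR). Scn2a1 was at 2.66 times and Scn3a at 2.42 times, while Scn3b was at 0.154 times and Scn1a at 0.674 times. The SD over libraries on the log2(CPM + 1) scale ran from 0.25 for Scn1a to 2.12 for Scn3a.

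**Figure D5:**
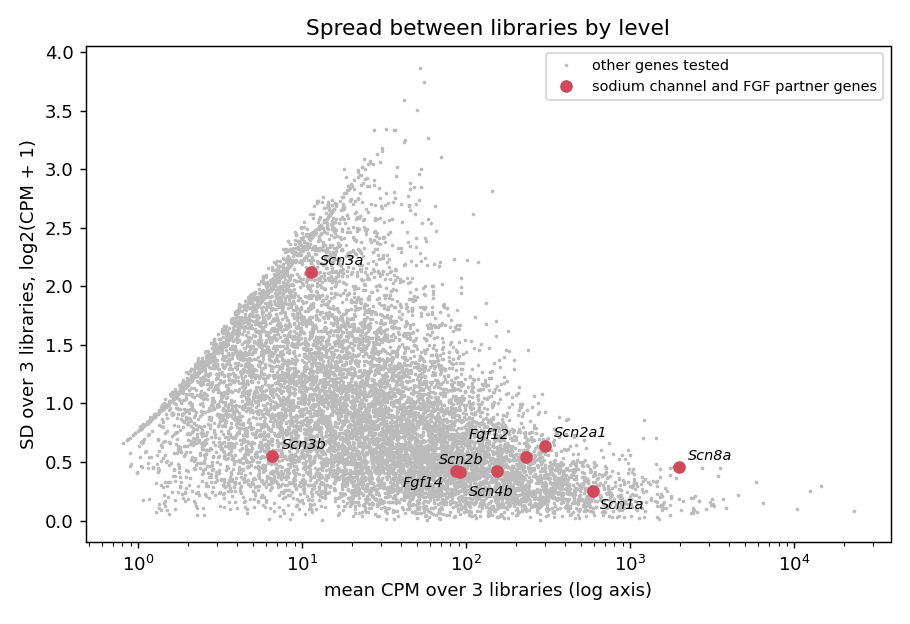
SD over 3 libraries, log2(CPM + 1), against mean CPM (log axis) for the genes tested, with the 9 sodium channel and FGF partner genes marked. Scn3a at 2.12 has the largest SD of the 9 genes and Scn1a at 0.25 the smallest.

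Replicate 1 held the highest level of 6 of the 9 genes, Scn1a, Scn8a, Scn2b, Scn4b, Fgf12 and Fgf14, beside 33.8% of all genes with at least 10 counts. The summed alpha level was 264, 164 and 183 RPKM, the beta level 69.7, 45.7 and 42.7 RPKM, and the FGF level 73.9, 62.7 and 38.3 RPKM in replicates 1, 2 and 3. Marker lists varied between the libraries too, and not all genes of a list went the same way. The 6 glutamatergic markers of the deep nuclei summed to 172, 153 and 118.5 RPKM, but 3 of them (Slc17a6, Meis2 and Meis1) were highest in replicate 1 and the other 3 (Spp1, Tbr1 and Lhx9) in replicate 2. Golgi cell and molecular layer interneuron markers, 5 of 5, were counted in every library and summed to 66.7, 46.7 and 42.7 RPKM, with Tfap2b and Lgi2 highest in replicate 1, Kit in replicate 2, and Grm2 and Lypd6 in replicate 3. Purkinje markers summed to 668, 881 and 918 RPKM and granule cell markers to 693, 834 and 782 RPKM, and of the 7 genes in each list 0 were highest in replicate 1. The 3 markers of oligodendrocyte precursors summed to 10.5, 6.70 and 20.5 RPKM, with 2 of the 3 highest in replicate 3. Oligodendrocyte markers (6 of 6 counted) stood at 352, 392 and 285 RPKM and astrocyte markers (5 of 5 counted) at 379, 351 and 375 RPKM. Of the astrocyte markers, Aldoc was highest in replicate 1, Gfap in replicate 2, and Slc1a2, Aqp4 and Aldh1l1 in replicate 3. Of 4 microglial markers, 3 were at 0 and Csf1r alone was counted, at 2.27 to 5.35 RPKM. Among reads on a gene, on no feature or ambiguous, 50.15%, 44.12% and 44.71% fell on no feature in replicates 1, 2 and 3. In the same order, 13095, 13586 and 13951 genes had a count. The part of these cell types, or of these library traits, in the sodium channel levels was not tested.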

How the data were processed

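RNA of EGFP-tagged polysomes from 3 pulldowns was sequenced. The authors deposited raw read counts per gene symbol. HTSeq, STAR 2.0.0e and mm10 come from the submitters' processing notes. The sources used here give no annotation, strand setting or read length. HTSeq's summary rows and a row named unknown were left out. Of the reads on a gene, on no feature or ambiguous between genes, 44.1 to 50.2% fell on no feature, the most in replicate 1. Multiply aligned reads were not counted.

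CPM used TMM library sizes (edgeR 4.0.16, R 4.3.3). RPKM divides CPM by the union of exons in GENCODE M21, matched by symbol (23114 symbols), with Scn2a1 matched to Scn2a. Isoforms are not separated. Log values are log2(RPKM + 1) with a pseudocount of 1, which understates differences of low genes. Genes that reached 10 counts in 2 libraries were tested for spread between libraries with a Poisson chi-square test and edgeR's quasi-likelihood dispersion over its trend, with Benjamini-Hochberg adjustment over all genes. Differences used exact sign-flip permutation tests (scipy 1.17.1). Binomial and Poisson intervals are exact (Clopper-Pearson for shares) and cover counting error only, since reads are not independent molecules.

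The genes and lists were chosen with earlier results of these data known. Named genes are the 9 genes, other genes of their families, and the 3 highest and 1 lowest of each partner list. Sptbn4 is named besides, as a partner gene below the median. A few genes under this rule are not reported here. No gene of like pattern is named, since 3 libraries are too few. Alternatives were other lengths, DESeq2 1.42.0 size factors, pseudocounts, filters, robust estimation and leaving out each library.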

Additional observations from a re-analysis of the deposited data

How the results depend on the processing

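The 10 differences within the subunit classes kept their sign with coding transcript length and in CPM. Leaving out each library, a pseudocount of 0.1 and no pseudocount were also tried. Those settings could not turn a sign, since each difference was above 0 in 3 of 3 libraries. The order of neighbouring levels across classes was recomputed in the same ways, chosen after seeing the data. Without length scaling, Fgf14 minus Scn4b reversed to -0.078 in log2 units, and the differences smaller than their SD changed sign for Scn2b minus Scn2a1 (-0.93) and Scn3b minus Scn3a (-0.03). Leaving out 1 library also turned Fgf12 minus Scn2b (-0.09 without replicate 2), Scn2a1 minus Fgf14 (-0.32 without replicate 3) and Scn3b minus Scn3a (-0.01 without replicate 1). Without length scaling, the Scn8a share of the alpha genes was 68.1%, that of Scn1a 20.7% and the Fgf14 share 27.6%, and the beta and FGF sums were 0.0874 and 0.113 of the alpha sum. With coding transcript length, the Fgf14 share was 30.4% and the beta sum 0.19 of the alpha sum. With 4 FGF and 9 alpha genes in the sums, an alternative chosen after seeing the data, the Fgf14 share was 12.0% and the FGF sum 0.89 of the alpha sum. Without a count filter, edgeR called 20 of 16071 genes above the trend, and 2 to 5 genes with a library left out, none of them among the 9. At an unadjusted p under 0.05 in that test, 1 of the 9 passed without a count filter, beside 880 of 16071 genes. Likewise 1 passed without replicate 1, 2 or 3, beside 448 of 9912, 372 of 9658 and 401 of 9582 genes. Counting error was exceeded by 7 of 9 genes tested without replicate 1, 8 of 8 without replicate 2 and 7 of 8 without replicate 3. Among all genes tested it was exceeded by 7977 of 9912, 7902 of 9658 and 7877 of 9582, in the same order. Scaling by total counts or DESeq2 size factors left 6 of 9 genes highest in replicate 1. No comparison between groups was possible because the labels give 1 group. The 3 counts of Scn3a in replicate 1 limit every statement on that gene.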
